A study of Mus musculus with 5 samples.

Results

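The genes described here encode the enzymes that make, remove or compete for 2-oxoglutarate and 2-hydroxyglutarate in mouse gliomas: the isocitrate dehydrogenase (IDH) subunits Idh1, Idh2, Idh3a, Idh3b and Idh3g, the 2-hydroxyglutarate enzymes D2hgdh and Adhfe1, and the branched-chain aminotransferases Bcat1 and Bcat2. They were chosen by gene symbol in the platform annotation and not by a cut on their values, though earlier results of these data were known. Of the 9 genes, 8 had a probe, out of 19057 genes named on the array, and they were read by 16 of 45281 probes; D2hgdh was not analysed here. The main value of a gene is that of its brightest probe, and the other probes are given beside it.

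RNA from whole tumour tissue was measured on Illumina BeadArrays in 5 gliomas, 3 labelled mutIDH1 and 2 labelled wtIDH1, each with its own tumour code and taken as a separate tumour. All were raised in untreated Ntva_Ink4a/Arf-/- mice of mixed FVB/N, C57BL6, BALB/C and 129 background. Every mouse lacked Ink4a/Arf and received DF1 chicken cells, which carry the RCAS virus, for PDGFa and for an IDH1 construct joined to shp53. The IDH1 form was the difference between the groups, mutant in mutIDH1 and wild type in wtIDH1, so the control tumours also carried a delivered IDH1 and no group lacked one. Ntva directs the tva receptor to nestin-expressing cells, so the viruses enter those cells and not every cell type of the tissue. Tumours were taken when mice fell ill; the age of the mice and the IDH1 mutation are not given in the sources used here.

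IDH1 in the cytosol and peroxisome and IDH2 in mitochondria oxidise isocitrate to 2-oxoglutarate and reduce NADP+ to NADPH. The NAD+-dependent IDH of the citric acid cycle is a separate complex of the catalytic subunit Idh3a with Idh3b and Idh3g. Tumour-associated mutants of IDH1 instead consume NADPH and turn 2-oxoglutarate into D-2-hydroxyglutarate, which D2hgdh oxidises back and which Adhfe1, a mitochondrial transhydrogenase, can also form. Bcat1 in the cytosol and Bcat2 in mitochondria move the amino group of leucine, isoleucine and valine onto 2-oxoglutarate, giving glutamate. In human gliomas BCAT1 is known mainly from tumours with wild-type IDH1, and D-2-hydroxyglutarate is known to inhibit both aminotransferases.

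The start regions of Idh2 and Bcat1, which had the smallest p-values among the 8 genes, are shown to place them in the genome. Each window runs from 250 bases before to 50 bases after an annotated transcript start (RefSeq, GRCm38.p6), reads 5′ to 3′ along the gene, and lies on the minus strand. Capitals mark ACGTG and GCGTG on either strand, the letters of the hypoxia response core; the matches shown do not overlap each other. Bcat1 has 2 annotated starts, and whether its probes tell their transcripts apart was not examined here.
Idh2, chr7:80115301-80115600: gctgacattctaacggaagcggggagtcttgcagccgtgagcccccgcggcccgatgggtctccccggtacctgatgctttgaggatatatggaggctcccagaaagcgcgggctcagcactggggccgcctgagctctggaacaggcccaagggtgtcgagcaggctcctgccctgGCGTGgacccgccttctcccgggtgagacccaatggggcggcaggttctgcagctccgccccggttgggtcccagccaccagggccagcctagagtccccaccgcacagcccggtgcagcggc
Bcat1 outer start, chr6:145076108-145076407: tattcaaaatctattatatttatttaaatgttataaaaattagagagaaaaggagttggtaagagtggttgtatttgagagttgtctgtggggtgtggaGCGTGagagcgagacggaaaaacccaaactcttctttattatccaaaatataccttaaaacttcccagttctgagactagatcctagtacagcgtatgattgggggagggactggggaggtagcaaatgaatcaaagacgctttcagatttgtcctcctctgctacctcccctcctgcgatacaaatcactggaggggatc
Bcat1 inner start, chr6:145048763-145049062: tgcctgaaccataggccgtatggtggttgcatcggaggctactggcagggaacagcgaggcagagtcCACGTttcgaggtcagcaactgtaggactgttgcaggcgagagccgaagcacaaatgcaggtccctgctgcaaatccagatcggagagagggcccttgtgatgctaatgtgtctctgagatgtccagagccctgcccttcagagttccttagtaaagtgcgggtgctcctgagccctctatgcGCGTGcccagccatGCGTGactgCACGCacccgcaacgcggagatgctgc

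The Idh2 window held 1 match, GCGTG at −73 to −69 from the start. The outer Bcat1 window held 1, and the inner window held 4. CpG pairs numbered 20 in the Idh2 window, 6 in the outer and 16 in the inner Bcat1 window, against a median of 7 over all 32851 windows. Of the 10 windows listed for 7 of the 9 genes, 9 held at least 1 of the motifs, and of all windows 43.77% did (19.62% for ACGTG and 32.39% for GCGTG). Both motifs contain a CpG, and the 10 windows held 6 to 27 CpG pairs, mostly above the median of 7. Some genes also gave more than 1 window, so the shares are not like for like. These arrays measured no binding or methylation, and the matches are letters only.

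The arrays shared 1 distribution of log2 signals, from 6.91 to 15.06, and between 18572 and 18586 probes per array lay above an estimated background of 7.53. With only 5 arrays, precision is limited throughout. The wtIDH1 pair was less alike (Pearson r = 0.971 across 16917 tested genes, which are not independent) than the mutIDH1 samples (0.988 to 0.994). Pairs across the groups gave 0.969 to 0.980, so the wtIDH1 samples were no more alike than many pairs of different groups. The tissue carried strong signal of oligodendrocyte precursor markers, summing to between 61265 and 65845 linear units over 8 genes in mutIDH1 and between 64281 and 64630 in wtIDH1, as known of PDGF-driven gliomas. Nothing in the labels says that samples of a group came from separate litters or days, so p-values measure the spread between these tumours alone.

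None of the 8 genes passed the test in either direction at a limma adjusted p of 0.05 (Benjamini-Hochberg over 16917 genes), where 1.35% of all genes passed, 0.899% lower and 0.449% higher in mutIDH1. At an unadjusted p under 0.05 there were 2 of the 8, Idh2 on the lower and Bcat1 on the higher side, against 14.4% of all genes. The groups did not overlap for 5 of the 8, lower in mutIDH1 for Idh2 and Bcat2 (2 of 8, against 14% of all genes) and higher for Idh3a, Idh3g and Bcat1 (3 of 8, against 16.7%). Over all genes 30.6% did not overlap in either direction. In bulk tissue fewer cells of a type and less RNA per cell cannot be told apart. The median absolute difference of the 8 was 0.25 on the log2 scale, against 0.10 over all genes tested. The sets are unlike in brightness, since all genes include dim ones with means down to 7.23, under the background of 7.53. Differences of dim genes are compressed, so the medians are not like for like.

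**Figure D1:**
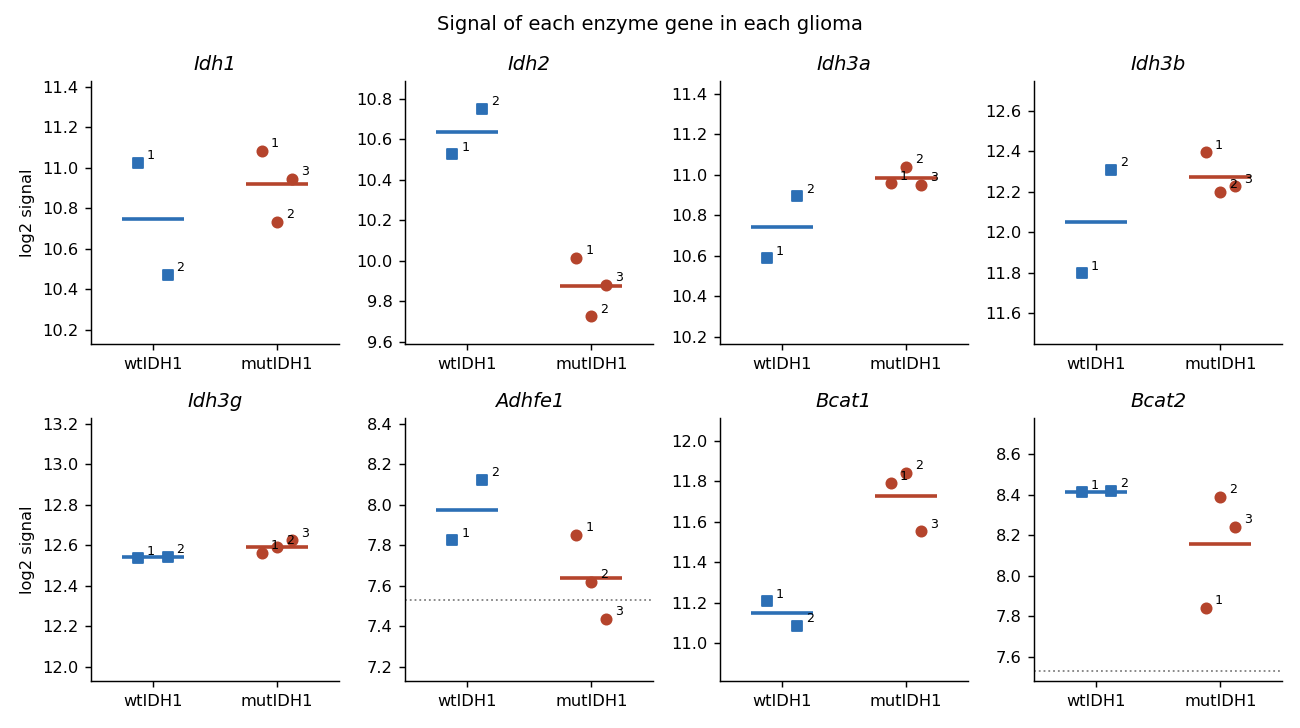
Log2 signal (vertical axes, all spanning the same range) of the brightest probe of each gene in the 2 wtIDH1 (blue squares) and 3 mutIDH1 gliomas (red circles), numbered by sample; bars are group means and the dotted line is the background level of 7.53. Idh2 and Bcat1 show clear gaps between the groups, while the wtIDH1 samples lie far apart for Idh1 and Idh3b.

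Idh1, the gene whose delivered form defines the groups, came first as a check of the labels. Its log2 signal was 11.08 in mutIDH1 sample 1, 10.73 in sample 2 and 10.94 in sample 3, against 11.02 and 10.47 in wtIDH1 samples 1 and 2. The groups overlapped, and wtIDH1 sample 2 was the lowest of the 5. The difference was 0.17 ± 0.19 (log2, SE; 95% interval −0.31 to 0.65; limma adjusted p = 0.783). Both groups received an IDH1 construct, and whether the single probe, annotated to the mouse transcript, reads the delivered form is not given, so Idh1 does not check the labels. The 0.55 gap between the wtIDH1 samples was exceeded by 7.76% of all genes. Without wtIDH1 sample 2 the difference turned to −0.10, and without wtIDH1 sample 1 it was 0.45.

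Idh2, the mitochondrial NADPH-making isoform, stood lower in every mutIDH1 glioma than in both wtIDH1 gliomas. Its log2 signal was 10.02, 9.73 and 9.88 in mutIDH1 samples 1 to 3 and 10.53 and 10.75 in wtIDH1 samples 1 and 2. The nearest values of the groups were 0.51 apart, more than the 0.29 spanned by the mutIDH1 samples and the 0.22 between the wtIDH1 samples. The mean was 9.87 ± 0.14 (SD, n = 3) in mutIDH1 and 10.64 ± 0.16 (SD, n = 2) in wtIDH1, a difference of −0.76 ± 0.12 (log2, SE; 95% interval −1.06 to −0.46; limma adjusted p = 0.0596). On the linear scale mutIDH1 stood at 0.589 of the wtIDH1 signal, with an interval from 0.479 to 0.725. It did not pass, and 277 of 16917 genes had a smaller p. With trended and robust moderation of the variance the adjusted p was 0.0329 (range over the 12 alternatives 0.0329 to 0.475), at the same difference. Leaving out samples in turn moved it between −0.87 and −0.65. Idh2 was read by 1 probe, so no other probe bears on it.

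The 3 subunits of the NAD+-dependent enzyme did not share the direction of Idh2. Idh3a, the catalytic subunit, read 10.96, 11.04 and 10.95 in mutIDH1 and 10.59 and 10.89 in wtIDH1. The groups were 0.057 apart at their nearest values, with wtIDH1 sample 1 clearly the lowest. The difference of 0.24 ± 0.11 did not pass (95% interval −0.03 to 0.52; limma adjusted p = 0.414), and it was 0.088 without wtIDH1 sample 1 and 0.39 without wtIDH1 sample 2.

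Idh3b, a regulatory subunit, read 12.40, 12.20 and 12.23 in mutIDH1 and 11.80 and 12.31 in wtIDH1. The groups overlapped, since wtIDH1 sample 2 lay among the mutIDH1 samples and only sample 1 was low. The difference was 0.22 ± 0.17 (95% interval −0.19 to 0.63; limma adjusted p = 0.653), and it turned to −0.033 without wtIDH1 sample 1. Idh3g, the other regulatory subunit, was the steadiest of the 8, at 12.56, 12.59 and 12.63 in mutIDH1 and 12.54 and 12.55 in wtIDH1. Its groups did not overlap, but by 0.018 only, and the difference of 0.05 ± 0.07 had an interval from −0.12 to 0.22 (limma adjusted p = 0.820).

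Adhfe1, the transhydrogenase, was dim. Its brightest probe read 7.85, 7.62 and 7.44 in mutIDH1, the last at or under background, and 7.83 and 8.12 in wtIDH1. The groups overlapped through mutIDH1 sample 1. The difference was −0.34 ± 0.16 (95% interval −0.73 to 0.05; limma adjusted p = 0.422), and without wtIDH1 sample 2 it was −0.19. Background had not been subtracted, which compresses differences of dim genes, and normexp background correction gave −0.53. The 3 other Adhfe1 probes were at or under background on all 5 arrays, with differences from −0.067 to 0.039.

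Bcat1, the cytosolic aminotransferase, stood higher in every mutIDH1 glioma than in both wtIDH1 gliomas. Its log2 signal was 11.79, 11.84 and 11.55 in mutIDH1 samples 1 to 3 and 11.21 and 11.09 in wtIDH1 samples 1 and 2. The nearest values of the groups were 0.35 apart, more than the 0.29 spanned by the mutIDH1 samples and the 0.12 between the wtIDH1 samples. The mean was 11.73 ± 0.15 (SD, n = 3) in mutIDH1 and 11.15 ± 0.09 (SD, n = 2) in wtIDH1, a difference of 0.58 ± 0.11 (log2, SE; 95% interval 0.30 to 0.86; limma adjusted p = 0.0896). On the linear scale the signal was 1.5-fold, with an interval from 1.23 to 1.82. It did not pass, and 488 genes had a smaller p. Leaving out samples in turn gave 0.52 to 0.67. Both Bcat1 probes are annotated to the same transcript, but the second was at or under background on all arrays (7.21 to 7.37), with a difference of 0.077, and the mean of the probes gave 0.33.

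Bcat2, the mitochondrial aminotransferase, read 7.84, 8.39 and 8.24 in mutIDH1 and 8.41 and 8.42 in wtIDH1. The groups did not overlap, by 0.022, and mutIDH1 sample 1 was the low sample. The difference of −0.26 ± 0.17 (95% interval −0.68 to 0.17; limma adjusted p = 0.602) was −0.099 without mutIDH1 sample 1. Its other probe was at or under background on all arrays.

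**Figure D2:**
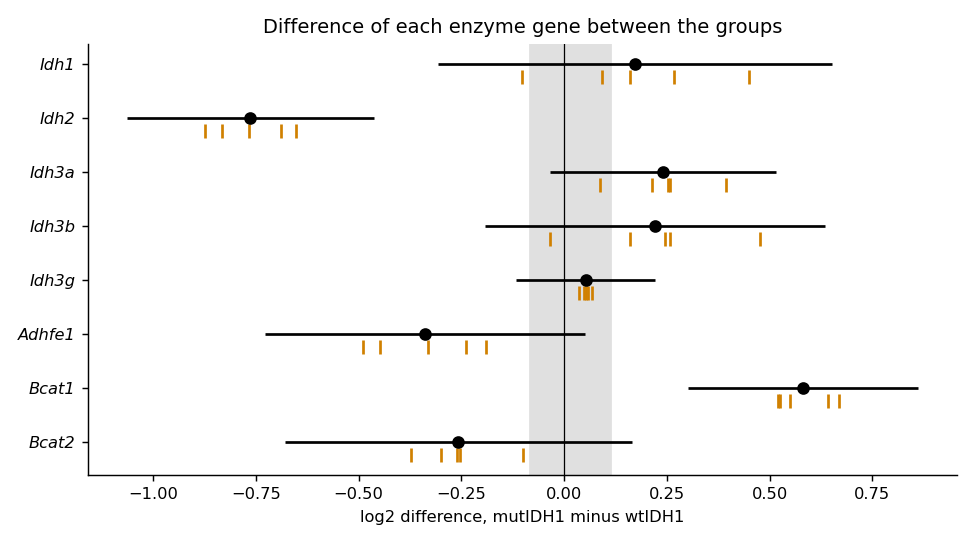
Log2 difference, mutIDH1 minus wtIDH1, of each gene (points) with its 95% limma interval (lines); orange ticks are the values without each sample in turn and the grey band holds the middle of all 16917 genes, from −0.08 to 0.11. The intervals of Idh2 and Bcat1 lie wholly on opposite sides of 0, and the ticks of Idh1 and Idh3b cross 0.

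Over all probes, 9 of the 16 lay above background on all 5 arrays, 6 on none, and 1 on 4 arrays; none passed limma's test adjusted over 36225 probes, where 376 did. Idh3g and Idh3a had a further probe above background. The dimmer Idh3g probe gave 0.08 ± 0.11, the same side as its brighter one, and the dimmer Idh3a probe gave −0.04 ± 0.07, the opposite side. The 6 probes under background spanned differences of at most 0.077 in size. Probes differ in how strongly they bind, so the levels of different genes are not ranked against each other here.

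Ratios within each array set the genes against each other without a level between probes; only their shift between groups has a meaning. The log2 ratio of Idh2 over Idh1 was −1.07, −1.01 and −1.06 in mutIDH1 samples 1 to 3 and −0.50 and 0.28 in wtIDH1 samples 1 and 2. The 3 mutIDH1 gliomas lay within a narrow band below both wtIDH1 gliomas, which were far apart. The shift was −0.94, and −0.55 without wtIDH1 sample 2. The ratio of Idh2 over the mean of the Idh3 subunits was −1.96, −2.22 and −2.05 in mutIDH1 against −1.11 and −1.17 in wtIDH1, again with no overlap. Its shift was −0.93, and −0.99 to −0.86 when samples were left out in turn.

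Bcat1 over Bcat2 was 3.95, 3.45 and 3.31 in mutIDH1 and 2.80 and 2.67 in wtIDH1, a shift of 0.84 (0.47 with the mean of the probes). Idh2 over Bcat1 was −1.78, −2.12 and −1.67 in mutIDH1 and −0.68 and −0.34 in wtIDH1, a shift of −1.34. In each of the 4 ratios the groups did not overlap, and the 2-sided exact permutation p was 0.1 (0.1 adjusted over the 4), the smallest that the 10 splits allow, so this design cannot pass 0.05. Idh2 and Bcat1 each enter more than 1 ratio, so the 4 are not independent. In Bcat1 over Bcat2 and in Idh2 over Bcat1, both genes were already apart between the groups, on opposite sides. The mean of the Idh3 subunits was likewise higher in every mutIDH1 glioma than in both wtIDH1 gliomas, on the side opposite to Idh2. So all ratios but Idh2 over Idh1 could only separate. Their lack of overlap and exact permutation p of 0.1 add nothing to the single values.

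**Figure D3:**
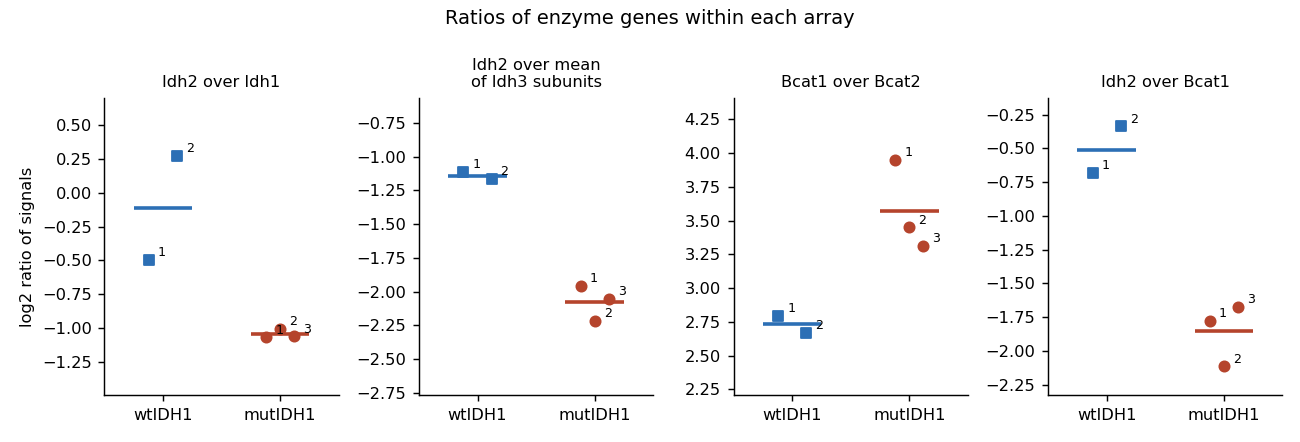
Log2 ratio of signals within each array (vertical axes, all spanning the same range) for 4 pairs of genes, in the wtIDH1 (blue squares) and mutIDH1 gliomas (red circles), numbered by sample; bars are group means. The groups lie apart in all 4, and the wtIDH1 samples lie furthest from each other for Idh2 over Idh1.

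The genes whose pattern over the 5 samples was most like that of a member were found by the root mean square distance between log2 signals centred on each gene's mean. Genes chosen in this way share the member's group difference by the choice. Their differences and p-values are therefore no separate result. Nearest to Idh2 were Sertm1 (0.037), Nostrin, which acts in the trafficking of endothelial nitric oxide synthase (0.044), Pgk1, the phosphoglycerate kinase of glycolysis (0.050), and Rcsd1 (0.061). Their differences were −0.79, −0.70, −0.70 and −0.84, and Sertm1 and Rcsd1 passed (limma adjusted p = 0.0432 and 0.0397). Nearest to Bcat1 were Srfbp1 (0.022), the glycine transporter Slc6a9 (0.043), the flippase subunit Tmem30a (0.057) and the nicotinic receptor subunit Chrna4 (0.059), with differences from 0.51 to 0.69. Nearest to Idh1 were the fatty acid desaturase Fads2 (0.019), the ubiquitin ligase Trim21 (0.033), the exchange factor Dock11 (0.043) and Tlcd3a (0.046), which like Idh1 read lowest in wtIDH1 sample 2.

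Neighbouring pathways also had no gene past the threshold. Of 4 further enzymes tied to 2-hydroxyglutarate, Phgdh, the entry enzyme of serine synthesis, which can also reduce 2-oxoglutarate to 2-hydroxyglutarate, read 10.77, 11.10 and 11.17 in mutIDH1 and 10.25 and 9.82 in wtIDH1. All mutIDH1 samples lay above both wtIDH1 samples. The difference was 0.98 ± 0.18 (limma adjusted p = 0.0823), and with trended and robust moderation it passed (0.0232). Etfa, a subunit of the flavoprotein that takes electrons from D2hgdh, stood at 0.10 ± 0.09 and its partner Etfb at −0.14 ± 0.17. The median of the 4 was 0.07, and −0.047 without wtIDH1 sample 2 and 0.20 without wtIDH1 sample 1.

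Of 15 measured citric acid cycle genes beside IDH, limma called 0, and 3 lay at an unadjusted p under 0.05, all lower, against 7.25% of all genes on that side and 7.11% on the higher side. Their median difference was −0.10, while the median of all genes was 0.01. Below 0 lay 13 of the 15, against 45.6% of all genes. Several of the 13 lay within the band that holds the middle of all genes, from −0.08 to 0.11. Of the 15, 2 were at or under background on all arrays. The leading genes were the succinate dehydrogenase subunits Sdhd (−0.45 ± 0.13, adjusted p = 0.206) and Sdhb (−0.25 ± 0.10, adjusted p = 0.344) and the malate dehydrogenase Mdh2 (−0.34 ± 0.10, adjusted p = 0.228). Of 13 genes of 2-oxoglutarate and glutamate, limma called 0, 1 lay lower and 2 higher at an unadjusted p under 0.05, and the median was 0.03 (−0.067 without wtIDH1 sample 1 and 0.20 without wtIDH1 sample 2). Psat1, the serine pathway transaminase that yields 2-oxoglutarate, stood at 0.57 ± 0.10 (adjusted p = 0.0750), Gpt2, the mitochondrial alanine transaminase, at 0.61 ± 0.20 (adjusted p = 0.248) and the citrate carrier Slc25a1 at −0.37 ± 0.09 (adjusted p = 0.151). Without wtIDH1 sample 1 Psat1 gave 0.69 and passed (adjusted p = 0.0453), in a fit with a lone wtIDH1 sample that is assumed to vary like the others.

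Of 21 genes that carry or break down branched-chain amino acids, limma called 0, 2 lay lower and 1 higher at an unadjusted p under 0.05, and the median was 0.03 (−0.042 without wtIDH1 sample 1). The higher gene was Slc25a44, the mitochondrial carrier of branched-chain amino acids, at 9.87, 10.01 and 9.80 in mutIDH1 and 9.35 and 9.47 in wtIDH1. Its groups were clearly apart, with a difference of 0.48 ± 0.09 (limma adjusted p = 0.0915). Auh, which acts in leucine breakdown, stood at −0.40 ± 0.13 (adjusted p = 0.237), and Bckdhb, a subunit of the dehydrogenase after the aminotransferases, at −0.18 ± 0.07 (adjusted p = 0.348).

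Of 11 other NADPH-linked genes, limma called 0, and 2 lay lower and 2 higher at an unadjusted p under 0.05; the median was −0.03 (from −0.13 without wtIDH1 sample 2 to −0.0057 without mutIDH1 sample 1). H6pd, which makes NADPH in the endoplasmic reticulum, stood at −0.37 ± 0.07 (adjusted p = 0.0945). The mitochondrial folate enzymes Mthfd2 and Aldh1l2 stood at 1.0 ± 0.20 (adjusted p = 0.101) and 0.74 ± 0.18 (adjusted p = 0.148), and Mthfd2 passed with trended and robust moderation (0.0270).

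**Figure D4:**
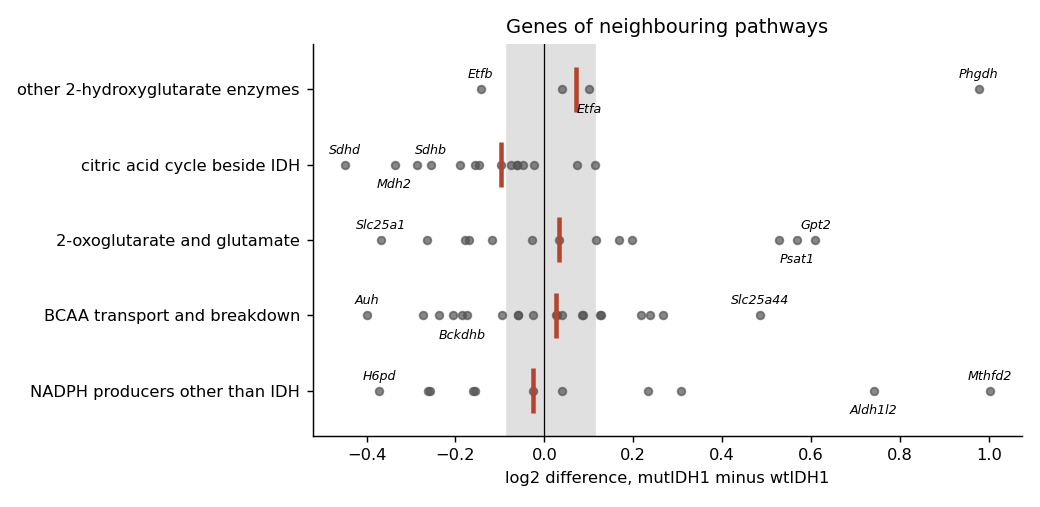
Log2 difference, mutIDH1 minus wtIDH1, of each measured gene (grey points) in 5 lists of neighbouring enzymes, with list medians (red bars) and the band that holds the middle of all genes (grey). Up to 3 genes with the smallest p are named per list. The medians lie between −0.10 and 0.07 with all samples, and Phgdh, Mthfd2 and Aldh1l2 stand apart on the right.

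Marker sums of some other cell types of the tissue differed between the groups. The summed linear signal of 10 of 10 endothelial markers was 10136 to 12462 in mutIDH1 and 18925 to 19814 in wtIDH1, and 4 of the genes fell by limma, among them Vwf (−1.34 ± 0.14, adjusted p = 0.0267). For 10 of 10 markers of mural cells and fibroblasts the sums were 5580 to 5839 against 11044 to 12289, with 4 genes that fell, Acta2 among them (−2.19 ± 0.18, adjusted p = 0.0186). Of the endothelial genes 9 stood below 0 and 1 above, Kdr (0.08). Of the mural and fibroblast genes 8 stood below 0 and 2 above, Rgs5 (0.09) and Cspg4 (0.20). The groups overlapped for Kdr, Tek, Rgs5, Cspg4 and Lum. None of these 20 genes lay at or under background on all arrays. For 4 of 7 red blood cell markers the sums were 6873 to 16142 against 24617 to 31762, with no gene called by limma and 3 at an unadjusted p under 0.05.

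For 7 of 10 monocyte and macrophage markers the sums were 1872 to 2959 in mutIDH1 and 7334 to 10261 in wtIDH1, with 4 genes that fell, including Mrc1 (−1.35 ± 0.12, adjusted p = 0.0212); Itga4 was under background throughout. For 8 of 9 neutrophil markers they were 1344 to 1421 against 2221 to 2658, with 4 genes that fell, including S100a8 (−1.80 ± 0.15, adjusted p = 0.0190); Cxcr2 and Mmp8 were under background. Sums of 9 of 10 microglia markers were 6493 to 7436 against 7580 to 10435, but the gap lay in Fcrls (−0.90); without it the sums overlapped (4487 to 5088 against 3973 to 5723), 5 of the 9 genes stood above 0 and their median difference was 0.12. Sums of 6 of 9 T cell markers were 2606 to 2653 against 2212 to 2594, of which Cd8b1 gave 62.2% to 68.8%; without it they overlapped (820 to 862 against 815 to 837), and Cd3g, Cd4 and Cd2 were under background. limma called none of the microglia and T cell markers (2 and 0 at an unadjusted p under 0.05; Fcrls lower, Sall1 higher). Sums without the gene whose linear group means differed most, chosen after seeing the data, still did not overlap for the endothelial, mural, red blood cell, monocyte and macrophage, and neutrophil lists; Hba-a1 alone gave 87.5% to 93.9% of the red blood cell sum. Between the groups, Idh2 and the vessel, monocyte and macrophage, and neutrophil sums were all lower in mutIDH1. Within wtIDH1, sample 2 had the higher Idh2. Its endothelial and neutrophil sums were the lower of the pair, and its mural and macrophage sums the higher. The part of these sums in the Idh2 and Bcat1 values was not tested.

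Marker sums of neurons, astrocytes, oligodendrocytes, oligodendrocyte precursors and dividing cells overlapped between the groups. Without Olig1 the precursor sums did not overlap, at 39306 to 41321 in mutIDH1 against 34059 to 37952 in wtIDH1. limma called none of the genes of these lists. At an unadjusted p under 0.05 lay 0 of the neuron and oligodendrocyte genes, 2 of the astrocyte, 5 of the precursor and 2 of the dividing cell genes. Snap25, Tubb3 and Nefl were under background throughout. In wtIDH1 sample 1 the neuron sum was 8334 and the astrocyte sum 17435, each the lowest of the 5, against 34733 and 42920 in wtIDH1 sample 2. The same sample read lowest for Idh3a and Idh3b, and their link to these sums was not tested.

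**Figure D5:**
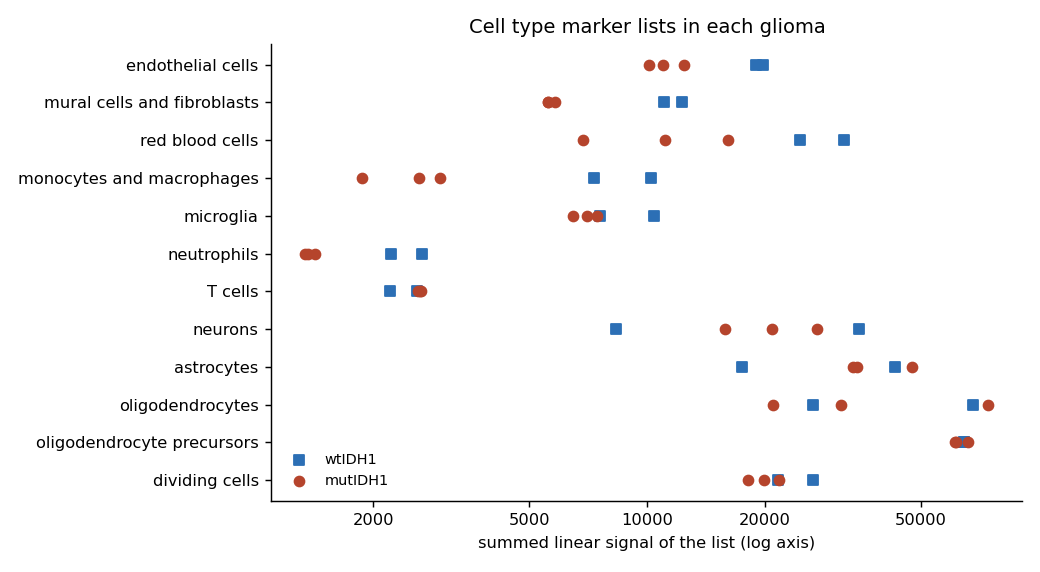
Summed linear signal (horizontal log axis) of 12 cell type marker lists in each wtIDH1 (blue squares) and mutIDH1 glioma (red circles). Endothelial, mural, red blood cell, macrophage and neutrophil sums are lower in all mutIDH1 gliomas, the microglia and T cell gaps rest on Fcrls and Cd8b1, and of all lists the neuron sum spreads most between the wtIDH1 gliomas, from 8334 to 34733.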

How the data were processed

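Whole-tumour RNA of 3 mutIDH1 and 2 wtIDH1 mouse gliomas was profiled on Illumina BeadArrays; groups and sample numbers came from the titles. The deposited values are log2 signals of 45281 probes, made with limma per the submitters' processing notes, with no version given and steps not given in the sources used here. Array medians differ by at most 0.00069, as after quantile normalization, and background was not subtracted to 0. A non-normalized table was left out, because its 10 per-sample columns match no single sample's labels.

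Probes were named by the platform annotation (34885 with 1 symbol, 18 with several, 10378 unnamed here), with symbols updated through 34807 gene identifiers matched to RefSeq GRCm38.p6. The dimmest 20% of probes (mean under 7.23) were left out, and each gene took its brightest probe, which left 16917 genes. The background level, 7.53, lies 3 spreads of 0.0919 above the commonest signal, 7.25, with the spread taken over lower signals. limma 3.58.1 in R 4.3.3 (lmFit, eBayes, 2-sided, group as the only term; 3 residual and 2.50 prior degrees of freedom) gave differences, moderated standard errors, 95% intervals and Benjamini-Hochberg adjusted p-values, and was tested on simulated data. Ratios had exact permutation tests. Marker sums add linear signals, background included, so they understate changes of dim lists.

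The 9 genes were set by name. The members, lists and tests were chosen with earlier results of these data known. Named genes are the 9 members, up to 3 per list with the smallest p, and the 4 nearest in pattern to Idh1, Idh2 and Bcat1; of the marker genes those cited for their change were taken from the same 3 per list. Some marker genes were named outside that rule after their values were seen. These are the ones cited as under background, as left out of a sum or as giving most of it. They also include those cited as above 0 or as overlapping in the endothelial and mural lists. The serine and amino acid genes of the closing section were likewise named outside that rule after their values were seen. Alternatives covered the filter, probe choice, background, normalization, variance moderation, each sample left out, and the sample number as a block.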

Additional observations from a re-analysis of the deposited data

How the results depend on the processing

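Idh2 and Bcat1 kept their side of 0 under every alternative run (12 and 13). Their differences ran from −0.87 to −0.65 and from 0.077 to 0.67. Most of these runs could not turn the sign. The filters and the variance moderation left both differences unchanged, as did the mean of the probes for Idh2. Leaving out a sample cannot turn a gene whose groups do not overlap. Idh2 was past the threshold under 1 alternative, trended and robust moderation (−0.76, limma adjusted p = 0.0329). With it the genes called lower numbered 1 among the 8 and 253 over all genes. That setting also called 1 gene among the other 2-hydroxyglutarate enzymes (Phgdh) and 1 among the NADPH producers (Mthfd2). Without wtIDH1 sample 2 Idh1 turned to −0.10 (0.45 without sample 1), and without wtIDH1 sample 1 Idh3b turned to −0.033 (0.48 without sample 2). Other probes turned Idh3a to −0.039 and Adhfe1 to 0.039 and 0.00055. With the mean of the probes, Idh3a gave 0.10, Idh3b 0.12, Adhfe1 −0.092 and Bcat2 −0.15. Over the samples left out, all-gene calls ranged from 0 to 234 lower and 0 to 245 higher (0 without mutIDH1 sample 2 or 3, where 1747 and 1849 genes had an unadjusted p under 0.05), calls among the 8 genes stayed at 0, and calls among 2-oxoglutarate and glutamate genes ranged from 0 to 1. List medians ranged from −0.067 to 0.20 for 2-oxoglutarate and glutamate, from −0.047 to 0.20 for other 2-hydroxyglutarate enzymes, from −0.042 to 0.038 for branched-chain amino acids, from −0.13 to −0.0057 for NADPH producers and from −0.15 to −0.087 for the citric acid cycle. The cause of these changes was not tested. The sample numbers carry no pairing in the labels, and deviations of same-numbered samples correlated at −0.26 for number 1 and 0.11 for number 2; with the number as a replicate block, which leaves 1 residual degree of freedom and gives mutIDH1 sample 3 no weight in the difference, 0 genes were called lower and 0 higher by limma (1562 at an unadjusted p under 0.05), with Idh2 at −0.77 (adjusted p = 0.475) and Bcat1 at 0.67 (adjusted p = 0.410). Idh1 and Idh2 rest on 1 probe each, and 5 arrays leave intervals that span more than 0.3 on the log2 scale for each of the 8 genes.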

Other observations

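Genes around Bcat1 and Psat1 in amino acid metabolism were read out after their values were seen, as a description with no test of the lists. Of 11 genes of serine synthesis and folate one-carbon metabolism, 8 were measured, and all 8 stood above 0. Over all genes 45.6% stood below 0. The median log2 difference of the 8 was 0.65 (all genes 0.01). Beside Phgdh, Psat1, Mthfd2 and Aldh1l2, given above, Shmt2, the mitochondrial serine hydroxymethyltransferase, read 9.39, 10.35 and 9.88 in mutIDH1 and 9.04 and 8.82 in wtIDH1 (0.94 ± 0.28, limma adjusted p = 0.211). Its cytosolic counterpart Shmt1 stood at 0.26 ± 0.16, with overlapping groups.

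Of 15 genes known from the cellular response to amino acid shortage, 11 stood above 0, with a median of 0.17. The share of all genes below 0 was 45.6%. Asns, asparagine synthetase, read 13.10, 13.71 and 13.38 in mutIDH1 and 12.47 and 12.48 in wtIDH1 (0.92 ± 0.18, limma adjusted p = 0.0937). Chac1, which degrades glutathione, stood at 1.82 ± 0.48 (adjusted p = 0.168), the cationic amino acid carrier Slc7a3 at 1.36 ± 0.32 (adjusted p = 0.135) and the leucine sensor Sesn2 at 0.67 ± 0.15 (adjusted p = 0.127). Atf4, the transcription factor of that response, stood at −0.09 ± 0.09, Trib3 at 0.10 ± 0.33, and the transcription factor Cebpb at −0.50 ± 0.09 (adjusted p = 0.0746). None of these genes passed the test over all genes.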
